A study of Mus musculus with 11 samples.

Results

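Messenger RNA levels of 10 enzymes of ceramide and sphingolipid metabolism were examined in the pancreas and the epididymal adipose tissue of mice with obesity-related alcohol-induced acute pancreatitis (OA-AP) and of control mice. The members were chosen by gene name, as the rows of both deposited count tables named Sptlc1, Sptlc2, Degs1, Cers2, Cers4, Cers5, Cers6, Asah1, Sphk1 or Ugcg. These are 10 of the 54532 genes listed for the pancreas and of the 46078 listed for adipose tissue, and all 10 passed the filter on low counts in both tissues. They were proposed with their levels in these samples already known, so their values are given as a description, without a p-value.

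The mice were wild type C57BL/6 males of 16 weeks of age. From an age of 4 to 5 weeks, OA-AP mice ate a diet with 60% of its energy from fat and control mice a diet with 10%, for 12 weeks. OA-AP mice then received 2 intraperitoneal injections of ethanol at 2 g/kg, 1 h apart, while control mice received saline, and tissue was taken 12 h after the first injection. Libraries came from the pancreas of 2 mice on the control and 3 on the OA-AP regimen, and from the adipose tissue of 3 mice on each. Diet, ethanol and pancreatitis all separated the groups and cannot be told apart.

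Ceramide is the central lipid of the sphingolipid pathway. It is made de novo in the endoplasmic reticulum by serine palmitoyltransferase, whose catalytic core is the Sptlc1 and Sptlc2 dimer, followed by a reductase, by the ceramide synthases, which attach a fatty acid of a chain length that differs between the Cers isoforms, and by the dihydroceramide desaturase Degs1. Ceramide is broken down to sphingosine by ceramidases such as lysosomal Asah1, phosphorylated onward to sphingosine 1-phosphate (S1P) by sphingosine kinases such as Sphk1, or built into glucosylceramide by Ugcg. In adipose tissue ceramides are known for their link to impaired insulin signalling, and in the pancreas they have been studied in relation to fatty acid toxicity.

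Library totals were 14188832 to 17238919 counts in the pancreas and 20825177 to 27928097 in adipose tissue. Levels are given as CPM, the count rate relative to the library total after scaling by TMM, a factor that aligns the bulk of genes between libraries, and a level compared between genes was divided by the gene length in kilobases deposited with the pancreas table. In both tissues the label was borne out by its markers. The 12 acinar enzymes summed to 684300 to 799700 CPM in control and 318700 to 406200 CPM in OA-AP pancreas, and the 8 adipocyte genes to 31570 to 41850 CPM over all adipose libraries. Without TMM, the acinar genes held 54.2% and 55.8% of the library total in control and 42.0% to 45.1% in OA-AP pancreas. One adipose library, control replicate 2, held 6450 CPM of the acinar genes against 8.27 to 17.8 CPM in the other 5.

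In control adipose tissue the member with the highest level per length was Cers2, at 59.4 ± 3.32 CPM per kb (SD, n = 3), followed by Degs1 at 52.7 ± 8.84 and Asah1 at 38.7 ± 3.93 CPM per kb. Cers2 and Degs1 lay within their spread of each other. Cers5 had 18.3 ± 1.197, Sptlc1 15.2 ± 0.554, Sptlc2 7.92 ± 0.667 and Ugcg 7.19 ± 1.15 CPM per kb, the last pair within their spread. Cers4 at 5.10 ± 1.01 and Cers6 at 4.63 ± 0.118 CPM per kb were also within their spread, and Sphk1 was lowest at 0.653 ± 0.241 CPM per kb. In OA-AP adipose tissue Cers6 stood at 41.1 ± 7.16 and Asah1 at 31.5 ± 3.17 CPM per kb, within their spread of each other. Sphk1 at 13.0 ± 3.90 was close to Sptlc2 at 13.7 ± 1.24 CPM per kb.

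In control pancreas the order was led by Degs1, at 15.5 ± 0.840 CPM per kb (SD, n = 2). Cers2 at 7.34 ± 0.174 and Asah1 at 7.20 ± 0.0509 CPM per kb came next and lay within their spread, followed by Sphk1 at 4.54 ± 0.289 and Sptlc1 at 2.64 ± 0.161. Ugcg, Cers6, Sptlc2, Cers5 and Cers4 all lay between 1.05 and 1.51 CPM per kb, and neighbours in that range were within their spread.

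A gene was called a differentially expressed gene (DEG) when edgeR's quasi-likelihood test, adjusted by Benjamini-Hochberg over all genes of the tissue, gave an adjusted p below 0.05 and the fold change was at least 1.5. In adipose tissue 3 of the 10 members, Cers6, Sphk1 and Sptlc2, were upregulated DEGs and none was a downregulated DEG. Of the 15839 genes tested in adipose tissue, 12.1% were upregulated and 13.0% downregulated DEGs. The control and OA-AP libraries did not overlap for 7 of the 10 members, against 52.4% of all genes tested. The median log2 fold change of the members was 0.40, against -0.01 for all genes.

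**Figure D1:**
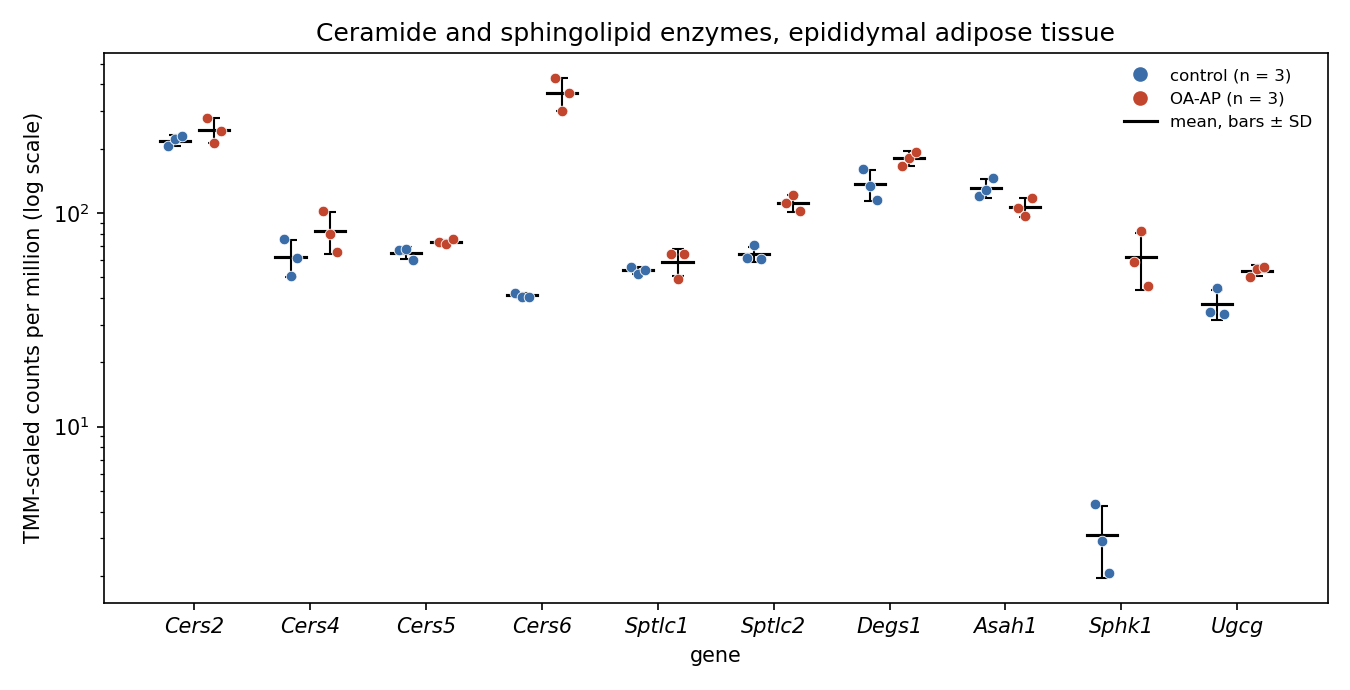
TMM-scaled CPM of the 10 enzymes in each epididymal adipose library, on a log axis, for control (blue, n = 3) and OA-AP (red, n = 3) mice, with the mean (line) and SD (bars). Cers6 lies between 40.5 and 42.3 CPM in control and between 301 and 428 CPM in OA-AP libraries, Sphk1 lies between 2.08 and 4.35 CPM in control and between 45.5 and 82.3 CPM in OA-AP libraries, and the other members differ far less.

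Cers6 (ENSMUSG00000027035, GRCm38 chromosome 2, 68861441 to 69114282, plus strand) encodes a ceramide synthase that favours palmitoyl-CoA. Its adipose levels were 42.3, 40.5 and 40.5 CPM in control and 428, 301 and 366 CPM in OA-AP libraries. The control libraries differed little among themselves, and the lowest OA-AP library lay far above them. The mean went from 41.1 ± 1.05 to 365 ± 63.5 CPM (SD, n = 3 and 3), an 8.87-fold difference with a log2 fold change of 3.15 (SE 0.15).

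None of the other ceramide synthases was a DEG in adipose tissue. Cers2, which makes very long-chain ceramides and is broadly expressed, had 218 ± 12.2 CPM in control and 244 ± 32.8 CPM in OA-AP libraries, with overlapping groups (log2 fold change 0.16, SE 0.13). Cers4, a synthase of long-chain ceramides, had 62.6 ± 12.3 and 82.7 ± 18.5 CPM, again overlapping (log2 0.40, SE 0.20). Cers5, the isoform closest to Cers6 in its preference for palmitoyl-CoA, had 67.3, 67.5 and 60.04 CPM in control and 73.1, 71.8 and 75.3 CPM in OA-AP libraries. The Cers5 groups did not overlap, but the difference was small (log2 0.18, SE 0.08).

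The make-up of the family differed between the groups within each adipose library, a measure that does not depend on how the libraries were scaled. Among the counts per length of Cers1 to Cers6, Cers6 made up 5.29% ± 0.230 in control and 30.3% ± 1.54 in OA-AP adipose tissue (SD, n = 3 and 3). Cers2 made up 67.8% ± 2.61 and 49.2% ± 0.335, and Cers5 20.95% ± 1.63 and 15.5% ± 1.84. The share of Cers4 was 5.84% ± 1.24 and 4.99% ± 0.844. As shares of counts not divided by length, Cers6 went from 10.6% ± 0.242 to 47.5% ± 2.02 and Cers2 from 56.4% ± 3.41 to 31.9% ± 0.373, so that by this measure Cers6 was ahead of Cers2 in OA-AP adipose tissue. The ratio of Cers6 to Cers5 per length was 0.253 ± 0.0147 in control and 1.98 ± 0.334 in OA-AP libraries, so Cers5 was the more abundant of the pair in every control library and Cers6 in every OA-AP library.

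**Figure D2:**
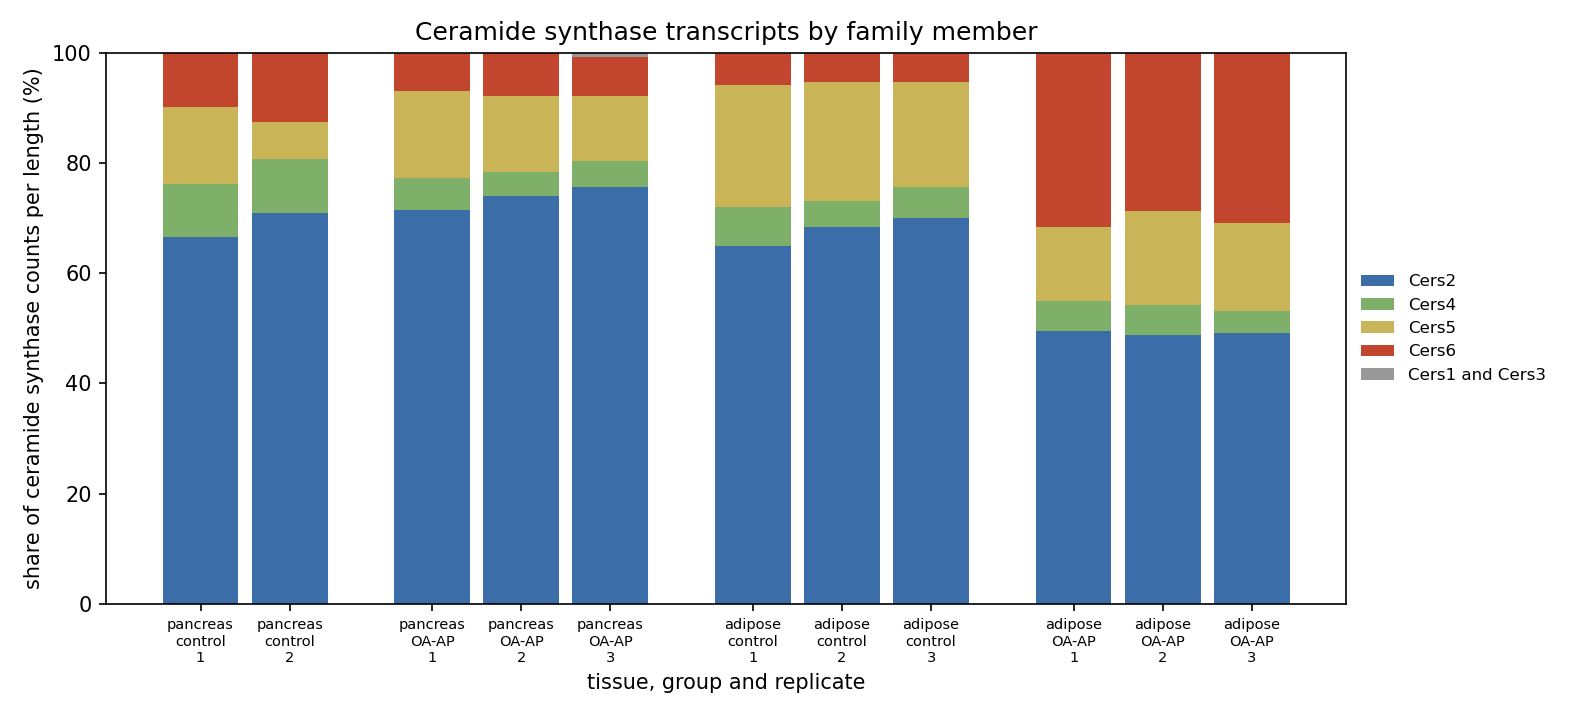
Share of each ceramide synthase among the counts per length of Cers1 to Cers6, in percent, for each library of both tissues (stacked bars, 1 per library). In adipose tissue the Cers6 share is 5.14% to 5.56% in the control and 28.6% to 31.5% in the OA-AP libraries, while in the pancreas Cers6 holds a smaller share in OA-AP (6.80% to 7.85%) than in control (9.72% to 12.5%).

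Serine palmitoyltransferase opens the pathway. Sptlc2 (ENSMUSG00000021036, GRCm38 chromosome 12, 87305058 to 87388355, minus strand), its catalytic subunit, had 61.6, 70.5 and 60.7 CPM in control and 111, 122 and 102 CPM in OA-AP adipose libraries. All OA-AP libraries were above all control libraries, with means of 64.2 ± 5.41 and 111 ± 10.03 CPM and a log2 fold change of 0.79 (SE 0.11). Sptlc1 (chromosome 13, 53332748 to 53377397, minus strand), the partner subunit, had 54.0 ± 1.97 and 59.2 ± 8.75 CPM, overlapping and not a DEG (log2 0.13, SE 0.12). The ratio of Sptlc2 to Sptlc1 per length was 0.523 ± 0.0627 in control and 0.845 ± 0.211 in OA-AP adipose tissue.

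Degs1 (chromosome 1, 182275772 to 182282804, minus strand), which introduces the double bond that turns dihydroceramide into ceramide, had 161, 133 and 115 CPM in control and 165, 182 and 193 CPM in OA-AP adipose libraries. The groups did not overlap, but the highest control and the lowest OA-AP library nearly met, and Degs1 was not a DEG (log2 0.40, SE 0.14).

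Of the enzymes that use ceramide or its products, Sphk1 (ENSMUSG00000061878, chromosome 11, 116530925 to 116536674, plus strand) differed most between the adipose groups. It had 4.35, 2.92 and 2.08 CPM in control libraries, from 118, 69 and 61 counts, and 59.0, 82.3 and 45.5 CPM in OA-AP libraries, from 1138, 1712 and 901 counts. The means of 3.12 ± 1.15 and 62.3 ± 18.6 CPM gave a log2 fold change of 4.32 (SE 0.34), the largest of the 10 members in either tissue. The ratio of Sphk1 to Sphk2 per length, Sphk2 being the other sphingosine kinase, was 0.118 ± 0.0301 in control and 1.82 ± 0.591 in OA-AP adipose tissue. Sphk1 shares 192 bases of exon with an antisense gene, Gm29292, and whether the counting used the read strand is not given in the sources used here.

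Asah1 (chromosome 8, 41340197 to 41374773, minus strand), acid ceramidase, was the only member with a lower mean in OA-AP adipose tissue. Its levels were 120, 128 and 146 CPM in control and 105, 96.8 and 118 CPM in OA-AP libraries, apart but close, and it was not a DEG (log2 -0.30, SE 0.12). Ugcg (chromosome 4, 59189257 to 59222833, plus strand), glucosylceramide synthase, had 34.2, 44.4 and 33.8 CPM in control and 50.1, 54.8 and 56.1 CPM in OA-AP libraries. The groups were apart, with means of 37.5 ± 6.00 and 53.6 ± 3.16 CPM, but the fold of 1.43 was under the 1.5 that a DEG required.

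The sequences just upstream of a RefSeq start are shown for the 3 adipose DEGs. Each run holds the 250 bases before the start on the gene's own strand, outside annotated exons, from the RefSeq promoter table on GRCm38.p6, which had an entry for 9 of the 10 members. Of the 5 windows listed for Sphk1, the one lying wholly outside exons is shown. It lies within the coordinates of the gene, and which start was used in adipose tissue was not tested. Capitals mark CCAAT and the E-box CACGTG on either strand (ATTGG is CCAAT on the other strand).
Cers6, chr2:68861191-68861440, plus strand: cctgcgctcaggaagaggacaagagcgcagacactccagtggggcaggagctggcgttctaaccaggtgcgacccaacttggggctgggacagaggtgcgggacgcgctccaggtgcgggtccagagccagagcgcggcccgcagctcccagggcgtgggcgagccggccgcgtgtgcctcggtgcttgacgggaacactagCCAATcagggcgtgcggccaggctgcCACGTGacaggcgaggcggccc
Sphk1, chr11:116532194-116532443, plus strand: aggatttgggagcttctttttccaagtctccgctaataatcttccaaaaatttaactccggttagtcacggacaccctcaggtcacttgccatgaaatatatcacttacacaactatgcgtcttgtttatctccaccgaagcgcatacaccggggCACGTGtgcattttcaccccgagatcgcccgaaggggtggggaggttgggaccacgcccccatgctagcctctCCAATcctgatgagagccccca
Sptlc2, chr12:87388356-87388605, minus strand: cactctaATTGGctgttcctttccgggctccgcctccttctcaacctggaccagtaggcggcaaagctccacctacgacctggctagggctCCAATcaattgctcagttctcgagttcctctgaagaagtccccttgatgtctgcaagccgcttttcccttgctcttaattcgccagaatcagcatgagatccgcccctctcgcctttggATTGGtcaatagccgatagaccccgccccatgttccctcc
In the Cers6 window CCAAT began 48 bases and CACGTG 22 bases before the start, and in the Sphk1 window CACGTG began 95 and CCAAT 22 bases before it. The Sptlc2 window held 3 CCAAT matches and no CACGTG. Of all 32851 promoter windows of this length, 33.8% held CCAAT and 6.02% held CACGTG on either strand. None of the 3 windows held the letters TGANTCA (AP-1, in 6.75% of windows), TGACGTCA (CRE, 1.55%), TTCNNNGAA (STAT, 7.02%), TTNNGCAA (C/EBP, 9.56%) or TATAAA (12.4%), or an NF-kB match (3.9%), and of the 3 only the Sptlc2 window held GGGCGG (32.7% of windows). Of the Sphk1 windows not shown, which overlap exons, 2 that overlap each other held both an AP-1 and a STAT match and 1 a TATAAA match. Among members that were not adipose DEGs, CCAAT lay in a Cers2 and the Sptlc1 window, and CACGTG in a Cers2 and the Degs1 window. The Ugcg, Cers4 and Cers5 windows held neither. A match is a run of letters and not a measured binding site.

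In the pancreas 4 of the 10 members were DEGs, and of these Sptlc2 alone was also a DEG in adipose tissue. Sptlc2 and Ugcg were upregulated, and Asah1 and Cers4 downregulated. Of the 12884 genes tested in the pancreas, 16.2% were upregulated and 13.5% downregulated DEGs. The groups did not overlap for 7 members, against 62.3% of all genes tested. The median log2 fold change of the members was 0.40, against 0.04 for all genes. This split depended on the scaling. With library totals alone, which moved the median of all genes to 0.75, 6 members were higher and none lower (Cers2, Cers5, Sphk1, Sptlc1, Sptlc2 and Ugcg), and 92% of all pancreas DEGs were upregulated in place of 54.5%. Without either of the 2 control libraries, Sptlc2 alone remained a DEG.

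**Figure D3:**
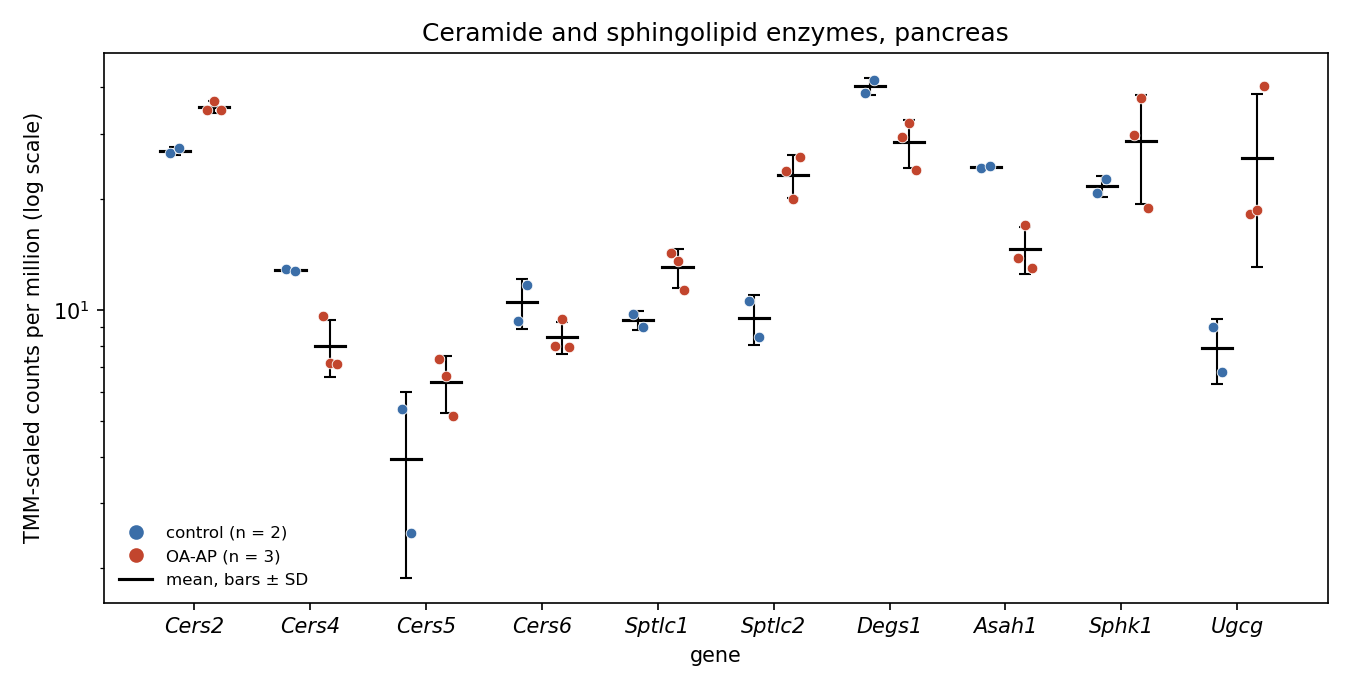
TMM-scaled CPM of the 10 enzymes in each pancreas library, on a log axis, for control (blue, n = 2) and OA-AP (red, n = 3) mice, with the mean (line) and SD (bars). Sptlc2 lies between 8.48 and 10.6 CPM in control and between 19.9 and 25.99 CPM in OA-AP libraries, Asah1 and Cers4 lie lower in all OA-AP libraries than in both controls, and Ugcg has 1 OA-AP library at 40.3 CPM, away from the other 2.

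Sptlc2 had 10.6 and 8.48 CPM in control and 23.7, 19.9 and 25.99 CPM in OA-AP pancreas libraries, so every OA-AP library was well above both controls. The means were 9.51 ± 1.47 and 23.2 ± 3.08 CPM (SD, n = 2 and 3), with a log2 fold change of 1.28 (SE 0.18). Sptlc1 had 9.78 and 8.97 CPM in control and 14.3, 13.6 and 11.3 CPM in OA-AP libraries, apart but not a DEG (log2 0.47, SE 0.18). The ratio of Sptlc2 to Sptlc1 per length was 0.443 ± 0.0417 in control and 0.793 ± 0.191 in OA-AP pancreas. Sptlc2 was the one member that was a DEG in the same direction in both tissues.

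Degs1 had 38.7 and 41.8 CPM in control and 29.3, 32.0 and 23.8 CPM in OA-AP pancreas, below the controls in all 3 libraries but not a DEG (log2 -0.50, SE 0.16). Its log2 fold change was 0.22 with library totals alone.

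Among the ceramide synthases, Cers4 (chromosome 8, 4493026 to 4531680, plus strand) had 12.9 and 12.8 CPM in control and 9.61, 7.21 and 7.17 CPM in OA-AP pancreas, a log2 fold change of -0.68 (SE 0.19) that became 0.04 with library totals alone. Cers4 shares 886 bases of exon with the pseudogene Vmn2r-ps89, on the other strand. Cers2 (chromosome 3, 95314791 to 95323599, plus strand) had 26.5 and 27.4 CPM in control and 34.7, 36.8 and 34.7 CPM in OA-AP libraries, apart but not a DEG (log2 0.39, SE 0.13). Cers2 shares 75 bases of exon with Setdb1 and 144 with 6330562C20Rik, both on the other strand. Cers6 had 9.35 and 11.7 CPM in control and 7.98, 9.44 and 7.95 CPM in OA-AP pancreas, so the groups overlapped and the mean was lower in OA-AP (log2 -0.31, SE 0.19, and 0.41 with library totals alone), without a DEG call. Cers5 (chromosome 15, 99734881 to 99772885, minus strand) had overlapping groups, and its 2 control libraries, with 63 and 25 counts, differed from each other by more than the group means did. Within the family, free of scaling between libraries, Cers4 made up 9.79% ± 0.152 of the counts per length in control and 4.99% ± 0.835 in OA-AP pancreas, and Cers2 68.7% ± 3.11 and 73.7% ± 2.16. Such a share cannot tell a lower level of Cers4 from a higher level of the others.

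Asah1 had 24.3 and 24.5 CPM in control and 13.9, 17.0 and 13.0 CPM in OA-AP pancreas, a clear separation with a log2 fold change of -0.74 (SE 0.16). The value was -0.03 with library totals alone. The ratio of Asah1 to Cers2 per length, which no scaling between libraries changes, was 0.982 ± 0.0163 in control and 0.446 ± 0.0486 in OA-AP pancreas. This ratio cannot tell a lower Asah1 from a higher Cers2, and with library totals alone Cers2 was an upregulated DEG. Sphk1 had 20.7 and 22.6 CPM in control and 29.8, 37.5 and 18.8 CPM in OA-AP libraries, which overlapped (log2 0.41, SE 0.27). OA-AP replicate 3 held the lowest Sphk1 level of all 5 pancreas libraries. Without that library, with a replicate block or with library totals alone, Sphk1 was an upregulated DEG in the pancreas.

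Ugcg had 9.01 and 6.78 CPM in control and 18.2, 18.6 and 40.3 CPM in OA-AP pancreas. All OA-AP libraries were above both controls, and replicate 3 was far above the other 2. The log2 fold change was 1.70 (SE 0.42), and 1.17 without that library, when Ugcg was still a DEG. The same library held 101.4 CPM of the 8 neutrophil markers, against 13.1 and 3.60 CPM in the other OA-AP libraries and 1.03 and 1.89 CPM in the controls. The part of these cells in the Ugcg value was not tested.

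The change of each member was also set against that in the other tissue, as the adipose minus the pancreas log2 fold change in 1 fit over all 11 libraries. The difference was 3.45 (SE 0.21) for Cers6, 3.91 (SE 0.47) for Sphk1, 1.07 (SE 0.29) for Cers4 and 0.89 (SE 0.22) for Degs1. These 4 members passed the same thresholds for the interaction in the direction of adipose tissue and none in the direction of the pancreas, where 10.4% and 10.2% of 17046 genes passed. With library totals alone, which moved the median of all genes to -0.88, Cers6 and Sphk1 were the only members higher in adipose tissue and 5 were lower. For Ugcg the difference was -1.19 (SE 0.44), and for Sptlc2 it was -0.50 (SE 0.21), neither of which passed. Ugcg did pass in the direction of the pancreas with DESeq2 and with a filter of at least 10 counts in every sample. It also passed when any 1 OA-AP pancreas library was left out. Of the 60 other sphingolipid genes described next, 53 could be tested for the interaction, and 10 passed in the direction of adipose tissue and 5 in that of the pancreas.

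**Figure D4:**
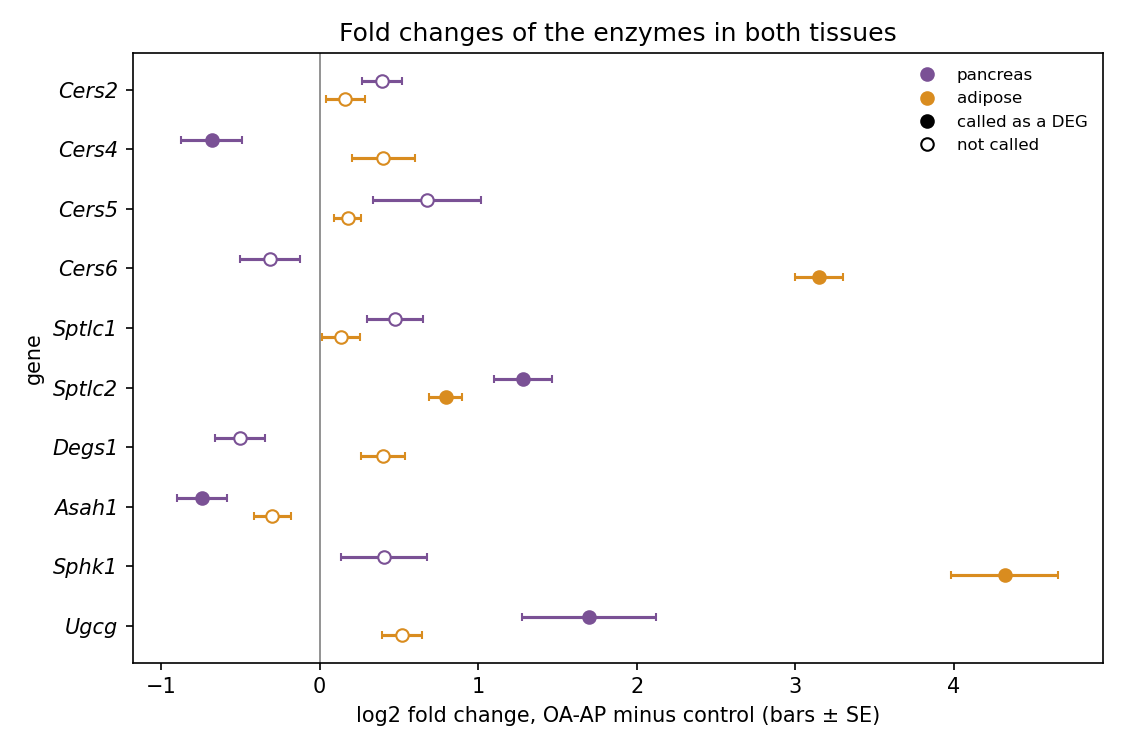
Log2 fold change of OA-AP against control for each enzyme in the pancreas (purple) and adipose tissue (orange), with SE as bars and filled points for DEGs. Cers6 and Sphk1 lie at 3.15 and 4.32 in adipose tissue and at -0.31 and 0.41 in the pancreas, whereas Sptlc2 is a DEG to the right of 0 in both.

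RNA levels of cell type markers also differed between the groups. In adipose tissue the 8 neutrophil markers summed to 7.05 to 12.8 CPM in control and 178.9 to 197.6 CPM in OA-AP libraries. All 6 of the neutrophil genes that could be tested were upregulated DEGs, and none of the 8 was at 0 in all libraries of a group. Macrophage markers summed to 988.8 to 1259 CPM in control and 1107 to 1618 CPM in OA-AP adipose tissue, with 3 of 8 upregulated and 1 downregulated. Lymphocyte markers summed to 11.5 to 42.7 and 2.96 to 4.90 CPM, with 6 of 8 downregulated, and fibroblast markers to 2595 to 3085 and 1482 to 1974 CPM, with 4 of 6 downregulated. Adipocyte markers summed to 38480 to 41850 and 31570 to 39110 CPM, with 1 of 8 upregulated and 2 downregulated. No endothelial or mesothelial marker was a DEG there. The part of these cells in the levels of Cers6, Sphk1 and Sptlc2 was not tested. In whole tissue, fewer cells of a type and less of an RNA per cell cannot be told apart. In the pancreas, 9 of the 12 acinar genes were downregulated DEGs under TMM scaling, and the part of the acinar share in the pancreas values was not tested either.

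The rest of the pathway was read from 60 other sphingolipid genes in 8 roles, which were tested. Their list was drawn up with an earlier report of these data at hand, so the choice may not be independent of the values. In the pancreas, 49 could be tested, of which 6 were upregulated, 9 downregulated and 34 not DEGs, with a median log2 fold change of -0.24. Of all genes tested there, 16.2% were upregulated and 13.5% downregulated, with a median of 0.04. Scaled by library totals alone, 19 were higher and 1 lower, while 92% of all pancreas DEGs were upregulated. In adipose tissue 49 could be tested, of which 4 were upregulated, 3 downregulated and 42 not DEGs, with a median of 0.13. There, 12.1% of all genes tested were upregulated and 13.0% downregulated, with a median of -0.01. Of the 15 pancreas DEGs, 4 were called without control replicate 1 (Acer2, Glb1, B4galnt1 and Gm2a). Without control replicate 2, 3 were called (Acer2, Glb1 and B4galnt1), and without OA-AP replicate 1, 9 were. The pancreas calls named below beyond these 4 thus rest on both controls. Calls also lost without OA-AP replicate 1 included those of Smpd1, Asah2, Cerk, Sgpp1 and Ormdl2. Adjusted p-values of these genes are from edgeR over all genes of the tissue.

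**Figure D5:**
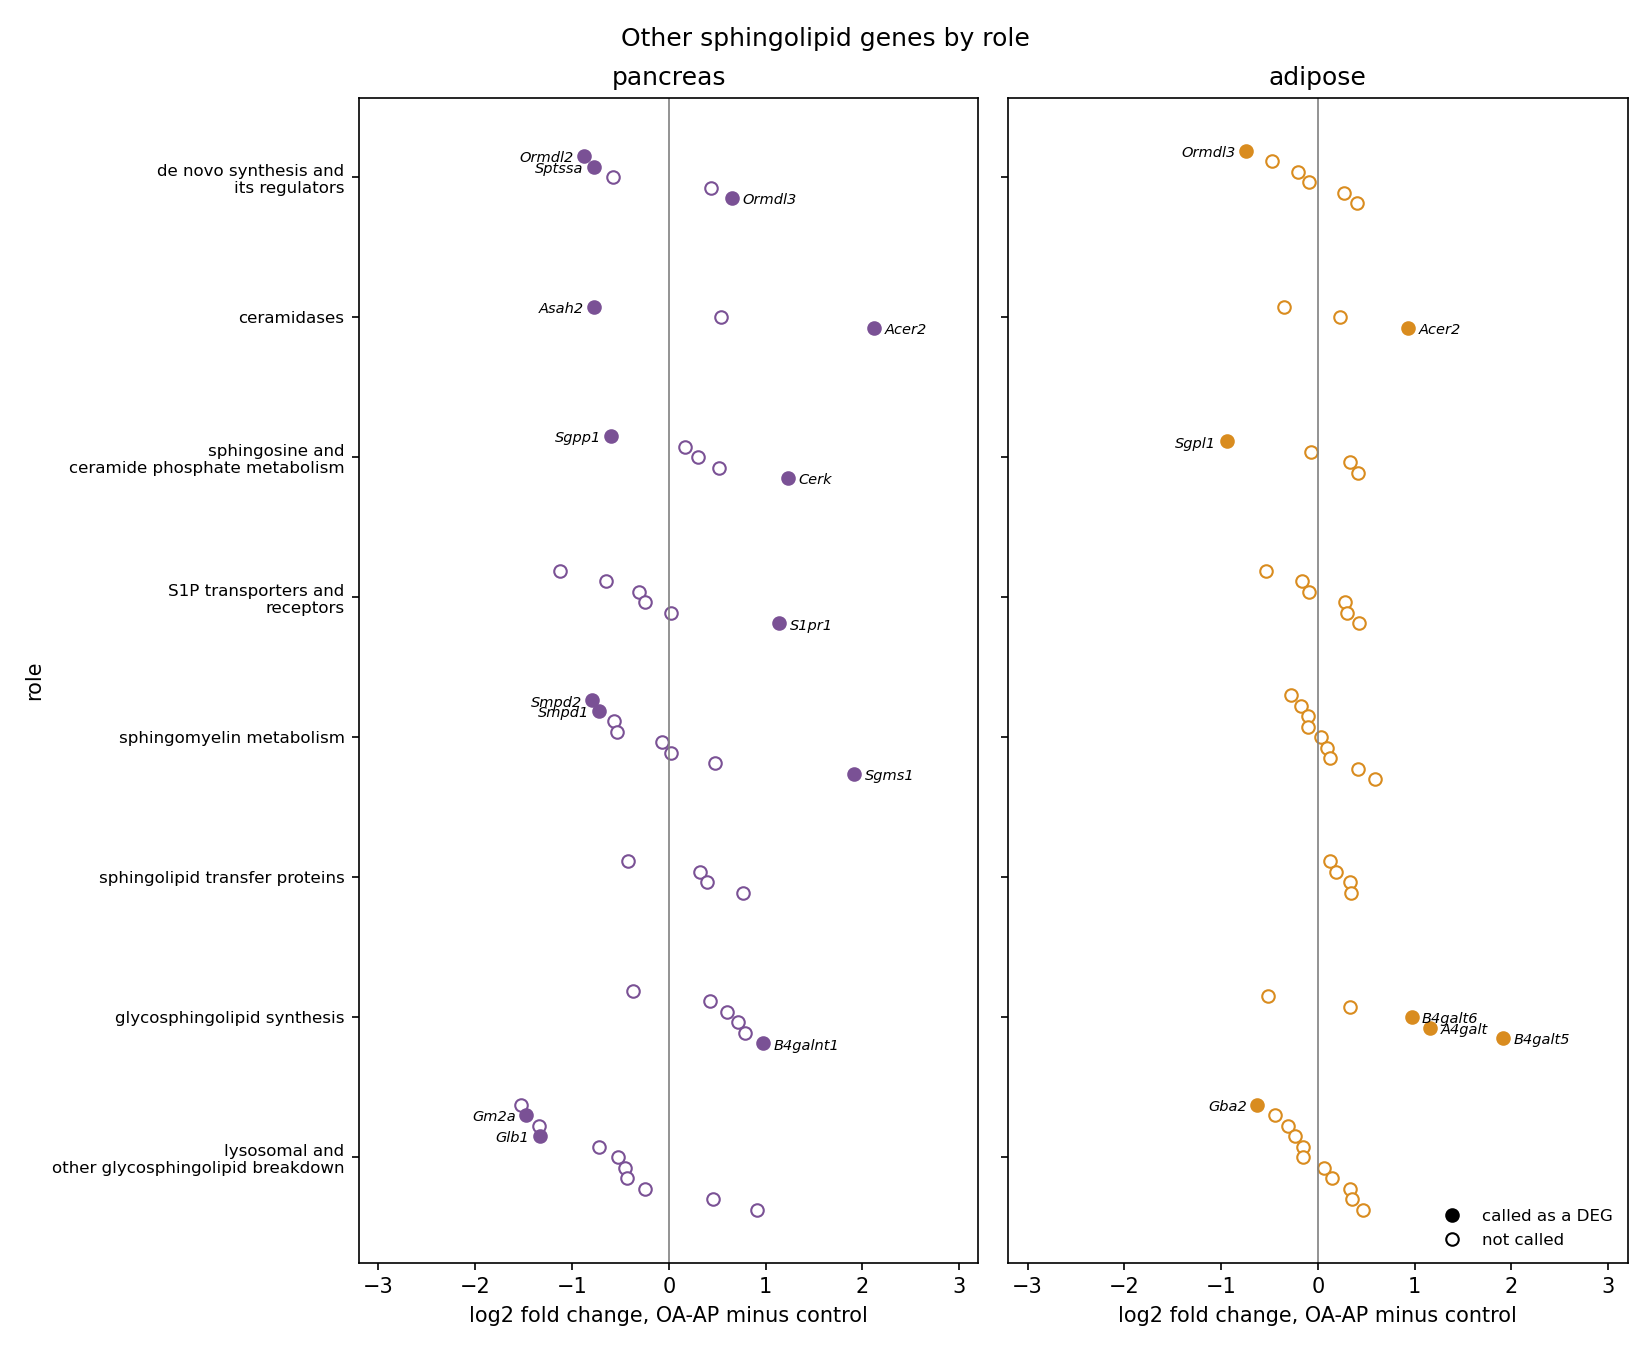
Log2 fold change of OA-AP against control for the other sphingolipid genes that could be tested and are reported here, by role, in the pancreas (left) and adipose tissue (right), with filled, named points for DEGs and vertical offsets only to separate points. In adipose tissue 3 genes of glycosphingolipid synthesis lie at 0.97 or more, and in the pancreas the lysosomal DEGs all lie to the left.

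Of the regulators of serine palmitoyltransferase, Ormdl3, one of the ORMDL proteins that restrain the enzyme, changed in opposite directions in the 2 tissues. It rose in the pancreas, from 49.4 ± 3.87 to 77.9 ± 11.2 CPM (log2 0.66, SE 0.16, edgeR adjusted p = 0.015), and fell in adipose tissue, from 322 ± 80.4 to 193 ± 13.9 CPM (log2 -0.74, SE 0.18, edgeR adjusted p = 0.0183). The difference between the tissues was -1.41 (SE 0.26, edgeR adjusted p = 0.00274). Both calls were lost without single libraries, in the pancreas without either control or OA-AP replicate 3, and in adipose tissue without control replicate 3 or OA-AP replicate 3, with log2 fold changes of 0.49 to 0.74 and -0.72 to -0.51 in these cases. Sptssa, a small subunit that activates the enzyme, fell in the pancreas from 33.5 ± 2.97 to 19.6 ± 3.43 CPM (edgeR adjusted p = 0.0119) and had 40.3 ± 3.07 and 29.0 ± 1.69 CPM in adipose tissue, a change under 1.5-fold. Ormdl2 fell in the pancreas (log2 -0.88, SE 0.27, edgeR adjusted p = 0.0386), at 4.50 ± 0.306 and 2.45 ± 0.218 CPM, but it was no longer a DEG with DESeq2, with library totals alone (log2 -0.17), without a filter on low counts, with a replicate block, or without any 1 pancreas library other than OA-AP replicate 3. Scaling by library totals alone also left Sptssa at -0.06, not a DEG. Ormdl1 and the reductase Kdsr were DEGs in neither tissue.

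Of the other ceramidases, Acer2, the alkaline ceramidase of the Golgi, rose in both tissues. In the pancreas it had 3.003 and 3.59 CPM in control and 15.5, 11.2 and 16.3 CPM in OA-AP libraries, clearly apart (log2 2.12, SE 0.24, edgeR adjusted p = 0.000704). In adipose tissue it had 83.5, 76.5 and 80.3 CPM in control and 136.1, 203.7 and 118.5 CPM in OA-AP libraries (log2 0.93, SE 0.20, edgeR adjusted p = 0.0111). Neutral ceramidase Asah2 fell in the pancreas from 18.4 ± 1.49 to 10.8 ± 2.28 CPM (edgeR adjusted p = 0.0219), but had a log2 fold change of -0.04 by library totals alone, and Acer3 was not a DEG in either tissue.

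Downstream of Sphk1, the S1P lyase Sgpl1, which degrades S1P irreversibly, fell in adipose tissue. It had 222.3, 179.0 and 228.8 CPM in control and 108.3, 114.7 and 105.1 CPM in OA-AP libraries, without overlap (log2 -0.94, SE 0.12, edgeR adjusted p = 0.00183). Set against the kinase, the ratio of Sphk1 to Sgpl1 per length was 0.0193 ± 0.00693 in control and 0.727 ± 0.185 in OA-AP adipose tissue, and 2.07 ± 0.244 and 2.41 ± 0.616 in the pancreas. Sgpl1 was not a DEG in the pancreas, at 13.5 ± 0.725 and 15.2 ± 2.71 CPM. There, the S1P phosphatase Sgpp1 fell (log2 -0.60, SE 0.14, edgeR adjusted p = 0.016), although its value was 0.12 with library totals alone. Its call was also lost in 4 of the 5 fits that left out 1 pancreas library. Of the 7 alternatives in tool, scaling, filter or block, 2 besides library totals lost the call as well. The ceramide kinase gene Cerk rose (log2 1.23, SE 0.39, edgeR adjusted p = 0.0426), from 2.40 and 1.496 CPM to 3.94, 3.49 and 6.43 CPM. Among the receptors of S1P, S1pr1 rose in the pancreas from 3.60 and 3.79 CPM to 5.46, 7.32 and 11.7 CPM (log2 1.14, SE 0.35, edgeR adjusted p = 0.0382), whereas S1pr2 and S1pr3 were DEGs in neither tissue. Cerk and S1pr1 were both highest in OA-AP replicate 3, the pancreas library with 101.4 CPM of neutrophil markers, and the part of these cells in the values was not tested.

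Downstream of Ugcg, 3 of the 5 tested genes of glycosphingolipid synthesis rose in adipose tissue and none fell. Over all genes tested there, these shares were 12.1% and 13.0%. The lactosylceramide synthases B4galt5 and B4galt6 act directly on the product of Ugcg. B4galt5 had 11.4, 19.4 and 13.5 CPM in control and 60.02, 43.8 and 63.2 CPM in OA-AP libraries (log2 1.91, SE 0.23, edgeR adjusted p = 0.00171). B4galt6 had 17.9, 20.3 and 16.4 CPM in control and 37.0, 30.2 and 39.7 CPM in OA-AP libraries (log2 0.97, SE 0.13, edgeR adjusted p = 0.00243). A4galt, which makes globotriaosylceramide from lactosylceramide, rose from 15.3 ± 1.47 to 34.2 ± 3.64 CPM (log2 1.16, SE 0.12, edgeR adjusted p = 0.00091). For all 3 the OA-AP libraries lay above every control library, while the ganglioside synthase St3gal5 had 12.5 ± 0.890 and 8.71 ± 3.06 CPM and was not a DEG. In the pancreas 1 of 6 tested genes of this role rose, against 16.2% of all genes. It was the ganglioside synthase B4galnt1, which went from 49.3 ± 2.48 to 96.8 ± 4.34 CPM (log2 0.97, SE 0.13, edgeR adjusted p = 0.0012).

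Of the sphingomyelin genes, Sgms1, a Golgi sphingomyelin synthase that consumes ceramide, rose in the pancreas. It had 8.07 and 9.67 CPM in control and 26.7, 21.5 and 52.0 CPM in OA-AP libraries, and as for Ugcg the highest value was that of OA-AP replicate 3, the library with the most neutrophil marker counts (log2 1.92, SE 0.42, edgeR adjusted p = 0.0161). Without that library the log2 fold change was 1.40 and Sgms1 was still a DEG. The part of the neutrophils in it was not tested. Acid sphingomyelinase Smpd1 and neutral sphingomyelinase Smpd2, which release ceramide, fell in the pancreas, Smpd1 from 11.1 ± 0.385 to 6.77 ± 0.0791 CPM (log2 -0.72, SE 0.17, edgeR adjusted p = 0.0137) and Smpd2 from 13.2 ± 1.00 to 7.60 ± 0.919 CPM (log2 -0.79, SE 0.18, edgeR adjusted p = 0.012). By library totals alone their log2 fold changes were -0.01 and -0.07, and neither was a DEG. No gene of this role was a DEG in adipose tissue, and no sphingolipid transfer protein was one in either tissue, Col4a3bp, the ceramide transporter CERT, having 24.1 ± 2.73 and 31.6 ± 2.64 CPM in the pancreas.

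In the pancreas 3 of 12 genes of glycosphingolipid breakdown fell, among them Glb1 and Gm2a, and none rose. Over all genes tested there, 13.5% fell and 16.2% rose. Glb1, the lysosomal beta-galactosidase, had 16.1 and 17.3 CPM in control and 6.82, 7.27 and 5.86 CPM in OA-AP libraries (log2 -1.33, SE 0.17, edgeR adjusted p = 0.00106). The ganglioside activator Gm2a had 5.66 and 6.28 CPM in control and 2.05, 2.35 and 2.04 CPM in OA-AP libraries (log2 -1.47, SE 0.26, edgeR adjusted p = 0.00392). With library totals alone Glb1 was still lower (log2 -0.61), whereas Gm2a (-0.76) no longer passed. Psap, the precursor of the saposins, had a log2 fold change of -0.43 (SE 0.12), which is under 1.5-fold and was 0.28 by library totals alone. In adipose tissue 1 of 12 fell, against 13.0% of all genes. This was Gba2, from 32.3 ± 0.614 to 20.95 ± 3.49 CPM (log2 -0.62, SE 0.13, edgeR adjusted p = 0.0105), a call lost without OA-AP replicate 3 (log2 -0.49).

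Some relatives of the members were barely counted. Cers1 had no count in any pancreas library and 0 to 9 counts per adipose library, and Cers3 had at most 5 counts in a pancreas and 11 in an adipose library. Degs2, the other desaturase, could be tested in adipose tissue alone, where it was not a DEG, at 2.88 ± 0.377 and 3.48 ± 0.361 CPM.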

How the data were processed

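RNA sequencing counts of 11 libraries were used, 5 from pancreas and 6 from epididymal adipose tissue, grouped by their labels. Per the labels and the study's methods, the authors prepared paired-end libraries with a NEBNext Ultra RNA kit, trimmed reads with Trim Galore 0.6.6, filtered them with fastp 0.20.1, aligned them to GRCm38 by STAR, assigned them to genes by featureCounts 2.0.1 and deposited whole-number counts without normalization. The annotation release and the strand setting of the counting are not given in the sources used here.

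Genes with low counts were removed with filterByExpr, libraries were scaled by TMM, and each tissue was tested apart with the robust quasi-likelihood test of edgeR 4.0.16 in R 4.3.3 (glmQLFit, glmQLFTest), as was the interaction of tissue and condition over genes in both tables. A DEG needed a p-value below 0.05 after Benjamini-Hochberg adjustment over all genes tested and a change of 1.5-fold or more. The code was tested on simulated data. Alternatives were DESeq2 1.42.0, other scalings, filters, fold thresholds, a replicate block and leaving out each library. CPM, shares and ratios were computed from the counts, per length with the deposited gene length. Coordinates are those of the deposited tables and equal GENCODE M21 for the 10 members. Same-numbered pancreas and adipose libraries may or may not be 1 mouse, and p-values measure the spread between libraries. Counts of replicates differed by more than counting noise (lowest chi-square per degree of freedom 6.91), so none was merged.

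The members, and the proposal to examine them, came with earlier results of these data known, and the list of 60 other genes was drawn up with the same report of the series at hand. Named genes were the 10 members, per tissue the called genes of that list with the smallest p-values (at most 8, and 5 for the interaction), and a set of main enzymes and receptors whatever their values. A gene of the list is counted but not reported here.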

Additional observations from a re-analysis of the deposited data

Results flagged for a closer look

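The interaction of tissue and condition, tested with edgeR over 17046 genes, could be tested for 53 of the 60 other sphingolipid genes. It passed for 15, of which 10 were in the direction of adipose tissue and 5 in that of the pancreas. Of all genes, 10.4% and 10.2% passed in these directions. The interaction is given for the 5 genes with the smallest p-values. As the adipose minus the pancreas log2 fold change, it was 1.53 for Gm2a (SE 0.17, edgeR adjusted p = 0.000148), 1.47 for Glb1 (SE 0.21, edgeR adjusted p = 0.000696), 1.13 for Smpd1 (SE 0.17, edgeR adjusted p = 0.000948) and 0.98 for the sialidase Neu1 (SE 0.18, edgeR adjusted p = 0.00307). Gm2a, Glb1 and Smpd1 fell in the pancreas and were not DEGs in adipose tissue, and Neu1 was a DEG in neither tissue, with log2 fold changes of -0.53 and 0.47. For Ormdl3 the difference was -1.41 (SE 0.26, edgeR adjusted p = 0.00274), with a rise in the pancreas and a fall in adipose tissue. With library totals alone the interaction no longer passed for Glb1 (0.62), Smpd1 (0.29) and Neu1 (0.14), whereas Gm2a (0.69) and Ormdl3 (-2.25) still passed.

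Among the enzymes the report describes, the interaction passed the same thresholds for Sphk1, Cers6 and Cers4, with differences of 3.91, 3.45 and 1.07, which are given without a p-value because these genes were proposed with their levels known. For Degs1 the libraries of the 2 groups were apart in both tissues and in opposite directions, lower in OA-AP pancreas and higher in OA-AP adipose tissue, with a difference of 0.89. Degs1 also passed the thresholds for the interaction, the opposite directions themselves were not tested, and with library totals alone the difference was 0.03.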

How the results depend on the processing

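The adipose values of Cers6 (log2 2.99 to 3.16) and Sphk1 (4.17 to 4.33) kept their direction and their DEG call under every scaling, filter and tool tried, and when any 1 adipose library was left out (3.03 to 3.28 and 4.07 to 4.66). In adipose tissue 3 to 4 of the 10 enzymes were DEGs when 1 library was left out. The pancreas rests on 2 control libraries. There the number of enzymes called, 4, was 1 to 5 when 1 library was left out, at its lowest without either control, and 2 at a fold of at least 2. Of the 60 other genes, the 15 called in the pancreas became 3 to 17 when 1 library was left out (4 without control replicate 1, 3 without control replicate 2 and 9 without OA-AP replicate 1) and 6 at a fold of at least 2. The 7 called in adipose tissue became 5 to 9, with 2 at a fold of at least 2 and 15 with no fold threshold. For the interaction, the 4 enzymes became 2 to 5 (2 without pancreas control replicate 2) and the 15 other genes 10 to 17. With library totals alone 7 enzymes passed the interaction, and in the pancreas the DEGs Cers4 (0.0399) and Sgpp1 (0.12) turned direction, as did Cers6 (0.41) and Degs1 (0.22) among the enzymes that were not DEGs. In adipose tissue that scaling called 32.1% of DEGs upregulated in place of 48.1%. With DESeq2 3 enzymes were DEGs in the pancreas, without Cers4, and 3 in adipose tissue. Treating same-numbered pancreas and adipose libraries of a group as 1 animal, an alternative chosen after seeing the data, left 8 of the 15 other genes and 3 enzymes in the interaction.

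Replicate numbers of control and OA-AP libraries named different mice, so the numbers were not taken to pair them. Deviations of same-numbered libraries correlated at 0.0007 and -0.04 in the pancreas and at -0.02, 0.05 and -0.18 in adipose tissue. Differently numbered adipose libraries correlated at -0.28 to 0.34. The deviations of the 2 pancreas controls mirror each other by construction, so the pancreas correlations cannot decide on pairing. With the replicate number as a block, 6 enzymes and 14 other genes were called in the pancreas, 3 and 7 in adipose tissue and 4 and 14 for the interaction. Sequencing depth limits the pancreas most, where Cers5 had 25 counts in 1 control library.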

Other observations

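Sptlc3, an alternative catalytic subunit of serine palmitoyltransferase, was not counted in any pancreas library and was too low to be tested in adipose tissue. It had 1, 2 and 2 counts in the control and 0, 46 and 24 counts in the OA-AP adipose libraries. Smpd3, a neutral sphingomyelinase, had 101.2, 18.5 and 33.6 CPM in the 3 OA-AP adipose libraries against 44.1 to 78.8 CPM in the controls, so its OA-AP libraries spanned both sides of the control range.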
